A study of Mus musculus with 11 samples.

Results

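A set of 8 keratin genes that mark simple and stratified epithelia was followed in whole mouse liver while an active form of the transcriptional coactivator YAP was switched on in hepatocytes. The 8 genes, Krt4, Krt7, Krt8, Krt18, Krt19, Krt20, Krt23 and Krt80, were chosen by name and taken as the rows with these symbols among the 20893 rows of the liver expression table. All 8 were present, and 7 of them were among the 14244 rows with enough signal to test. Krt20 did not pass that filter, and Krt80 passed it only through its 7-day values.

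Bulk RNA-seq of homogenised liver covered 11 libraries from C57BL/6 mice in 3 groups. All 3 groups carried ROSA26-rtTA-IRES-EGFP, an allele from which the rtTA transactivator and a green fluorescent reporter are made after Cre recombination. The 4 control livers were labelled WT in place of tetYAP and came from mice that received doxycycline food for 7 days. The induced livers carried tetYAP and came from mice fed doxycycline for 3 days (4 livers) or 7 days (3 livers). In the cross used by the study, Cre was driven by the albumin promoter, so the transgene is switched on by doxycycline in hepatocytes, whereas RNA was taken from all cells of the liver. The labels do not say whether the controls carried Cre. The labels gave no age and did not say whether each library came from its own mouse, so p-values measure the spread between these libraries.

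Keratins are the intermediate filament proteins of epithelial cells. A type II keratin pairs with a type I keratin, and the pairs polymerise into filaments that are anchored to desmosomes between cells and to hemidesmosomes at the basement membrane. Hepatocytes are known for a simple network built only from Krt8 and Krt18, while bile duct cells add Krt7 and Krt19. Krt4 is otherwise known from the upper layers of oesophagus and other internal stratified epithelia, where its usual partner is Krt13, Krt20 from gut and bladder lining, Krt23 as a stress-associated type I keratin, and Krt80 as a type II keratin found near desmosomes. YAP acts with TEAD factors at DNA and is restrained by the Hippo pathway, and Cyr61 and Ctgf are its textbook target genes.

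Reads on genes numbered 1251481 to 5496258 in the control libraries. They numbered 2660497 to 3681646 in the 3-day libraries and 5312835 to 5942223 in the 7-day libraries, so the 7-day livers were also the deepest apart from 1 control. Values are eRPKM, a kind of RPKM, in which the reads that fall on a gene are divided by its exon length and by the depth of the library. More Xist than Ddx3y RNA was found in 2 control, 2 3-day and all 3 7-day libraries, so female sex and the 7-day group cannot be fully told apart. The median log2 fold change over all tested genes was 0.02 at 3 days and 0.26 at 7 days against control, and after scaling by median-ratio size factors the 7-day median was 0.03. A fold change at 7 days is therefore read against 0.26. The Yap1 row itself gave 13.9 to 21.1 eRPKM in the control livers, and the induced livers, at 15.3 to 19.3, lay inside that range. Cyr61 rose at 7 days by a log2 fold change of 3.27 (SE 0.30, limma adjusted p = 8.0e-06), and Ctgf rose by 3.49 (SE 0.34, adjusted p = 1.2e-05). Of the defining markers, albumin averaged 514 eRPKM in controls, 377 at 3 days and 249 at 7 days, so hepatocyte RNA was present in all groups. Albumin reads hardly followed depth. Each control library held 2417 to 3102 of them, although control depth ran from 1251481 to 5496258 reads on genes. The lower means are therefore not read as a fall of albumin RNA, and the part of depth in them was not tested.

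Of the 8 keratins, the type II genes Krt4 and Krt7 rose at 7 days and no member was called lower. Krt4, almost without reads in controls, became the most abundant of the 8 after the hepatocyte pair. The abundant pair, Krt8 and Krt18, stood higher on average at 7 days without passing the threshold under the deposited scaling. A gene was called when its limma adjusted p, taken over all 14244 tested rows, was under 0.01 and its absolute log2 fold change above 0.5.

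**Figure D1:**
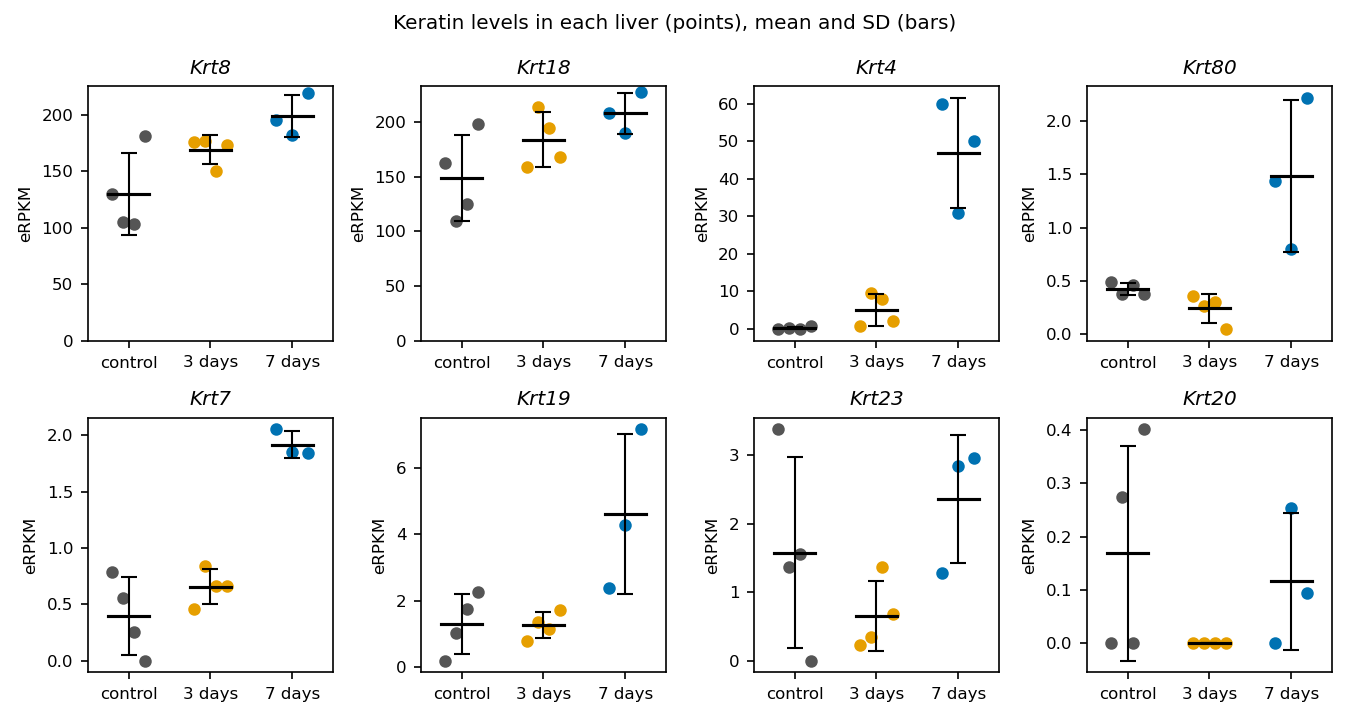
Level of each keratin in eRPKM (vertical axis, linear, a separate scale for each gene) in control, 3-day and 7-day livers. Points are livers, the thick line is the group mean and the bars are 1 SD (n = 4, 4 and 3). The 3 7-day livers sit above all other livers for Krt4, Krt7, Krt19 and Krt80, and by a small margin for Krt8, while Krt18 and Krt23 overlap between groups.

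Krt8 and Krt18 form the filament network of the normal hepatocyte. Krt8 lies on chr15:101827142-101834773 (mm9, minus strand) and Krt18 on chr15:101858647-101862457 (plus strand), so Krt18, although a type I gene, stands beside Krt8 at the edge of the type II cluster, and neither shares an exon with another annotated gene. Krt8 stood at 129.5, 105.2, 102.9 and 181.4 eRPKM in controls 1 to 4, at 175.9, 176.6, 150.1 and 173.2 in 3-day livers 1 to 4, and at 195.4, 181.6 and 218.9 in 7-day livers 1 to 3. The 7-day livers all lay above every control, with control 4 almost level with 7-day liver 2. The 3-day livers fell between the lower controls and the 7-day livers.

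Krt18 stood at 162.4, 109.7, 124.7 and 197.8 eRPKM in controls, 158.6, 213.6, 194.7 and 168.1 at 3 days, and 207.7, 189.5 and 226.8 at 7 days. Its groups overlapped throughout, since control 4 exceeded 7-day liver 2. Behind these values stood 357 to 1738 reads per library for Krt18 and 422 to 2163 for Krt8, so read counting adds little to the spread seen between livers.

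In the main fit neither member of the pair passed the threshold. Krt8 gave a log2 fold change of 0.41 (SE 0.18) after 3 days, with a limma adjusted p of 0.372. After 7 days it gave 0.65 (SE 0.19), with an adjusted p of 0.0180. Krt18 gave 0.33 (SE 0.19, adjusted p = 0.504) after 3 days. After 7 days it gave 0.52 (SE 0.20), with an adjusted p of 0.0601. Between 7 and 3 days the difference was 0.23 for Krt8 with a 95% interval of -0.18 to 0.65, and 0.18 for Krt18 with an interval of -0.25 to 0.62, and with median-ratio size factors both turned to slightly negative values, -0.01 and -0.06.

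The calls for this pair depended on the scaling and on which libraries entered the fit. At 7 days Krt8 was called in 7 of 26 alternatives and Krt18 in 2. With 1 liver left out, the limma adjusted p of Krt8 ran from 0.00101 to 0.0819. With size factors, Krt8 differed at 7 days by a log2 fold change of 0.38 (adjusted p = 0.302) and Krt18 by 0.25 (adjusted p = 0.508). With quantile normalization both were called, at 1.28 (adjusted p = 5.8e-06) and 1.17 (adjusted p = 0.000208). Among the controls, the 2 libraries with more Xist than Ddx3y held 102.9 and 105.2 eRPKM of Krt8, and the other 2 held 129.5 and 181.4. For Krt18 the same split gave 109.7 and 124.7 against 162.4 and 197.8. Control 4, the highest control for both genes, was also the shallowest library, with 1251481 reads on genes. Restricted to libraries with more Xist than Ddx3y (2 controls and 3 7-day livers), Krt8 was called with a log2 fold change of 0.92 (adjusted p = 0.00390) and Krt18 with 0.82 (adjusted p = 0.00777). The part of sex in the difference over all libraries was not tested.

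Krt8 and Krt18 moved together from liver to liver. Over the 11 livers the Pearson correlation of their log2 values was 0.89, given as a description only, since both values of a point come from 1 library. The ratio of Krt8 to Krt18 was 0.798 to 0.959 in controls, 0.771 to 1.11 in 3-day livers and 0.941 to 0.965 in 7-day livers. The 7-day ratios lay close to each other and inside the range of the 3-day livers.

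Krt4, the type II keratin of internal stratified epithelium, showed by far the widest change of the 8. The gene lies on chr15:101748967-101755166 (mm9, minus strand), in the type II cluster, and shares no exon with another annotated gene. Controls 1 to 4 held 0, 0.331, 0 and 0.727 eRPKM, from 0, 4, 0 and 2 reads. The 3-day livers held 0.853, 9.53, 8.03 and 2.22 eRPKM, from 5, 76, 65 and 18 reads. The 7-day livers held 59.9, 30.9 and 49.9 eRPKM, from 705, 404 and 583 reads. The 3 groups did not overlap, although 3-day liver 1, with 5 reads, stood only just above control 4, with 2.

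At 7 days Krt4 rose by a log2 fold change of 6.01 (SE 0.61, limma adjusted p = 1.7e-05), which is a 64.3-fold difference of eRPKM + 0.5 with a 95% interval that starts at 25.8-fold. Mean levels were 0.265 ± 0.346 eRPKM (SD, n = 4) in controls and 46.9 ± 14.7 (SD, n = 3) at 7 days. Between 3 and 7 days Krt4 rose by 3.44 (SE 0.61, adjusted p = 0.00105), a 10.8-fold difference on the same scale. At 3 days the difference from control was 2.57 (SE 0.56), and its adjusted p of 0.0833 missed the threshold, although all 4 livers lay above all controls. The two-sided exact permutation test of this difference gave 0.0286, a value that 4 against 4 livers cannot go below.

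The 3-day values of Krt4 fell into a higher and a lower pair. Livers 1 and 4, whose column names carry the suffix MF, held 0.853 and 2.22 eRPKM, and livers 2 and 3, without it, held 8.03 and 9.53. The only 7-day liver with that suffix also had the lowest Krt4 of its group, 30.9 against 49.9 and 59.9. What the suffix stands for is not stated. The suffix was taken up after it was seen to divide the Krt4 values, and no control carries it, so a fit that adjusts for these lower livers or drops them raises the 3-day value by construction and adds no support to it. With the suffix as a covariate, the log2 fold change of Krt4 at 3 days was 3.41 (limma adjusted p = 0.00756), and without the 3 livers of that suffix 3.70 (adjusted p = 0.00487). Leaving out 3-day liver 1, the lowest of its group, gave 3.11 (adjusted p = 0.00823).

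Krt13, the type I partner of Krt4 in stratified epithelium, stayed at the floor. Krt13 had 3 reads over the 4 controls, 0 over the 3-day livers and 3 over the 7-day livers, when Krt4 had 6, 164 and 1692. Krt13 was named here as a defining marker of stratified epithelium.

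**Figure D2:**
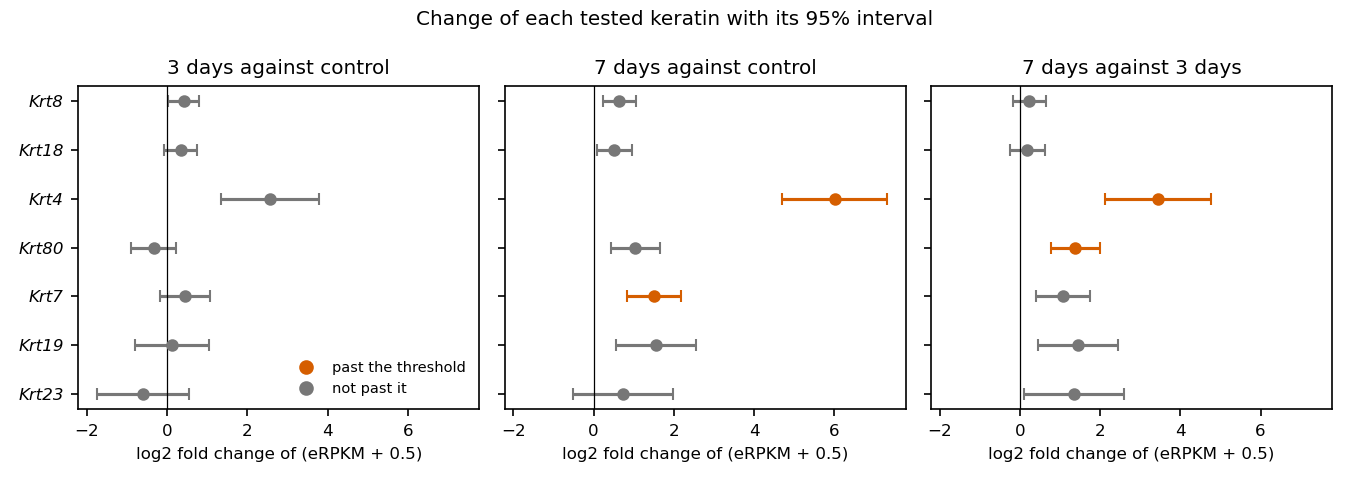
Log2 fold change of eRPKM + 0.5 (horizontal axis) with its 95% interval for the 7 tested keratins in the 3 comparisons, orange where the threshold was passed and grey where it was not. Krt4 at 7 days (6.01) stands far to the right of the other keratins, and the intervals of Krt8 and Krt18 between 7 and 3 days include 0.

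Krt7 and Krt19 are the keratins that bile duct cells add to the simple pair. Krt7 lies on chr15:101241474-101260744 (mm9, plus strand) and Krt19 on chr11:100002124-100009979 (minus strand), with no exon shared with another gene. Both were known from few reads. Krt7 stood at 0.785, 0.556, 0.254 and 0 eRPKM in controls (5, 5, 1 and 0 reads), 0.459, 0.843, 0.665 and 0.665 at 3 days (2 to 5 reads) and 2.06, 1.85 and 1.84 at 7 days (16 to 18 reads). All 7-day livers were close to each other and above every other liver. Krt7 rose at 7 days by a log2 fold change of 1.51 (SE 0.31, limma adjusted p = 0.00221), with 0.44 (adjusted p = 0.564) at 3 days and 1.07 (adjusted p = 0.0185) between 3 and 7 days. The call at 7 days was lost in 5 of 25 alternatives. Among these were the fits without 7-day liver 1 (log2 fold change 1.47, adjusted p = 0.0113) and with a pseudocount of 0.1 (2.41, adjusted p = 0.0106). Over the 25 alternatives the log2 fold change of Krt7 ran from 0.94 to 2.41, and its limma adjusted p reached 0.0280.

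Krt19 stood at 0.181, 1.03, 1.76 and 2.26 eRPKM in controls (1, 8, 6 and 4 reads), 0.796, 1.36, 1.15 and 1.73 at 3 days (3 to 9 reads) and 2.37, 4.28 and 7.19 at 7 days (18, 36 and 54 reads). The 7-day livers spread widely, and the lowest of them barely exceeded control 4. Krt19 differed from control by a log2 fold change of 1.57 (SE 0.46) after 7 days, and the limma adjusted p of 0.0172 missed the threshold. At 3 days it was 0.11 (adjusted p = 0.942), and this value turned to -0.30 without control 1.

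Krt7 and Krt19 did not rank the 7-day livers alike. Krt7 was nearly equal in the 3 livers, while Krt19 and Krt80 were highest in liver 3. Some markers of bile duct cells were called in the same comparison. The summed level of the 18 biliary markers was 122 to 166 eRPKM in controls, 149 to 223 in 3-day livers and 256 to 309 in 7-day livers, and 4 of the 15 that could be tested were called higher at 7 days, with none lower, beside 18% and 5.77% of all tested rows. The called markers were Bicc1 (log2 fold change 4.21), Prom1, a stem and duct cell surface protein (2.92), Pkhd1, the fibrocystin gene of duct cell cilia (2.11), and Cldn4, a tight junction claudin at 0 in every control (1.51). Cldn4 would not have passed the filter without its 7-day livers, so its call lends no support. The call of Prom1 stood at an adjusted p of 0.00953 and was lost in 15 of 26 alternatives. Among these were size factors (2.68, adjusted p = 0.0163), quantile normalization (2.55, adjusted p = 0.0159) and log2 depth as a covariate (2.39, adjusted p = 0.113). It was also lost with no filter, without the 2 shallowest controls, and without any single control but control 3 or any single 7-day liver. Sox9, the duct and progenitor transcription factor, had 0.95 (adjusted p = 0.0318), Epcam, a surface marker of duct cells, 1.10 (adjusted p = 0.0599) and Spp1, the osteopontin gene, 0.74 (adjusted p = 0.0477), none of which passed. Cd24a and Sctr, other duct markers of the list singled out after their values were seen, had -0.0094 (adjusted p = 0.988) and -0.0167 (adjusted p = 0.978). The count of 4 was 1 with log2 depth as a covariate, 2 with no filter and 2 without the 2 shallowest controls. It was also 2 without control 1, control 2, control 4, 7-day liver 1 or 7-day liver 3. The part of duct cell number in the levels of Krt7 and Krt19 was not tested. In bulk liver, more or fewer cells of a type and more or less RNA per cell cannot be told apart.

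Krt80 and Krt23 stood at low levels, with means at 3 days below those of the controls that did not pass the threshold. Krt80, a type II keratin on chr15:101177875-101200556 (mm9, minus strand), had 0.485, 0.372, 0.458 and 0.378 eRPKM in controls, from 3 to 13 reads, and 0.354, 0.260, 0.299 and 0.0428 at 3 days, from 1 to 7 reads. At 7 days it had 1.44, 0.794 and 2.22 eRPKM, from 30 to 75 reads. All 3-day livers lay just below all controls, and all 7-day livers above them. Against control, the 3-day livers gave a log2 fold change of -0.34 (limma adjusted p = 0.632) and the 7-day livers one of 1.04 (SE 0.28, adjusted p = 0.0118), neither past the threshold. Between 3 and 7 days the log2 difference was 1.38 (SE 0.28, adjusted p = 0.00287). No control or 3-day liver reached the 0.5 eRPKM of the filter, so Krt80 entered the test through its high 7-day values alone, and this p lends no support to a difference. The threshold was also missed without 3-day liver 4 (1.24, adjusted p = 0.0101), without 7-day liver 1 (1.37, adjusted p = 0.0130), without 7-day liver 3 (1.12, adjusted p = 0.0200) and with quantile normalization (0.78, adjusted p = 0.0831).

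Krt23, a type I keratin on chr11:99339288-99354451 (mm9, minus strand), had 3.38, 1.37, 1.56 and 0 eRPKM in controls, 0.235, 0.346, 1.36 and 0.681 at 3 days and 1.29, 2.85 and 2.95 at 7 days. In eRPKM the controls alone covered the whole range of the other groups. No comparison of Krt23 passed the threshold, with log2 fold changes of -0.61 (limma adjusted p = 0.678) at 3 days, 0.73 (adjusted p = 0.340) at 7 days and 1.34 (adjusted p = 0.0844) between them. Krt20, its neighbour on chr11:99289717-99299464 (minus strand), had 4 reads over the controls, 0 over the 3-day livers and 4 over the 7-day livers. The 0 reads over the 3-day group allow a level of up to 0.110 eRPKM there, by counting error alone, so a difference of Krt20 between groups was not detectable at this depth.

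Counted over the members, none was called at 3 days by limma, although 2 of the 7 tested had an unadjusted p under 0.05, and limma-voom called none (0) either, where 0.0421% of all tested rows were called higher and 0% lower. Of all tested rows, 3.38% had every 3-day liver above every control and 2.25% had every one below, and among the members these were Krt4 above and Krt80 below. At 7 days 2 of the 8 were called higher, Krt4 and Krt7, and none lower, beside 18% of all tested rows higher and 5.77% lower. Of the 8 members 5 had every 7-day liver above every control (Krt4, Krt7, Krt8, Krt19 and Krt80), where 36.7% of tested rows did. The separation of Krt80 lends no support here or between 3 and 7 days, since its 7-day values alone brought it past the filter. Krt20, which is among the 8, was not a tested row. Between 3 and 7 days 2 were called higher, Krt4 and Krt80, of which Krt80 entered the test only through its 7-day values, and none lower, beside 14% and 5.31% of tested rows, and the same 5 members had every 7-day liver above every 3-day liver, where 31.3% of tested rows did. With size factors, 1951 rows were called higher and 1254 lower at 7 days, where the deposited scaling gave 2561 and 822. With 8 members, these counts do not set the keratins apart from the table as a whole. The comparisons with control share the same 4 control livers and are not independent of each other.

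Set side by side per kilobase, the 8 keratins gave a pool made almost wholly of Krt8 and Krt18 in controls. The pair took 98.2% to 99.0% of the summed eRPKM of the 8 in controls, 96.8% to 99.2% in 3-day livers and 85.7% to 90.1% in 7-day livers, so the 7-day range lay below both others. Krt4 took 0% to 0.190%, 0.253% to 2.37% and 7.50% to 12.7% of the sum in the same order. At 7 days the Krt4 level was 0.306, 0.170 and 0.228 times that of Krt8 in livers 1 to 3. The other 5 keratins together never took more than 2.80%.

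The balance of the 2 keratin types, given as a description, lay further to type II at 7 days, when Krt4 was highest. The summed type II level over the summed type I level was 0.788 to 0.947 in controls, 0.807 to 1.11 in 3-day livers and 1.09 to 1.22 in 7-day livers. Among the 3-day livers this ratio did not follow Krt4. Livers 1 and 4 had ratios of 1.11 and 1.03 with 0.253% and 0.642% of Krt4, and livers 2 and 3 had 0.870 and 0.807 with 2.37% and 2.25%. The 7-day livers all had more type II than type I, and all lay above the controls, with 1 3-day liver inside the 7-day range. Without Krt4 the same livers gave ratios of Krt8 to Krt18 below 1, as stated above. These are shares of RNA reads and carry no information on protein.

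**Figure D3:**
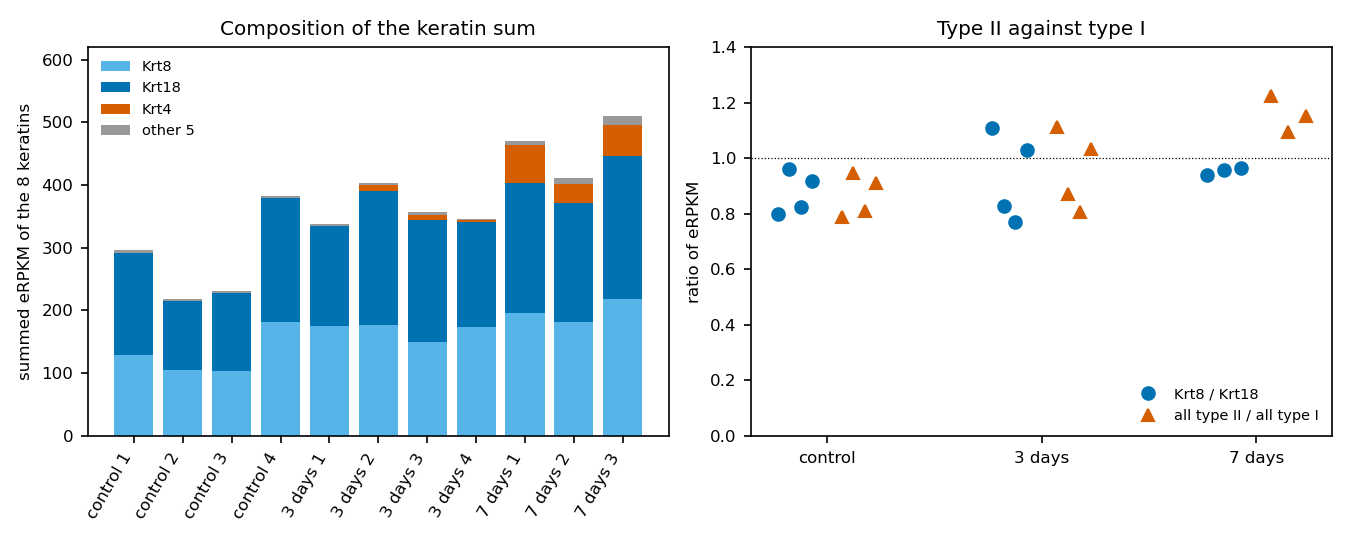
Left, summed eRPKM of the 8 keratins in each liver, stacked as Krt8, Krt18, Krt4 and the other 5. Right, the ratio of Krt8 to Krt18 (circles) and of all type II to all type I keratins (triangles) in each liver, with the dotted line at 1. Krt4 appears as a visible layer in the 3-day livers 2 and 3 and takes 7.50% to 12.7% of the sum at 7 days.

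The order of levels was the same at the top in every liver, with Krt8 and Krt18 first and second. Krt18 exceeded Krt8 in 9 of the 11 livers and Krt8 exceeded Krt18 in 3-day livers 1 and 4, so the order of these neighbours did not differ beyond their spread. Krt4 came next in all 3-day and 7-day livers. In 3-day liver 1 this place rested on 5 reads against 3 for Krt19. Below it, Krt7, Krt19, Krt23 and Krt80 changed places from liver to liver, and Krt20 was last in all 3-day and 7-day livers. The level of Krt7 is set per 1586 bases, while the annotation used here gives its exons a length of 7049 bases. For Krt80 these lengths were 6163 and 4290 bases, and for Krt19 they were 1373 and 1855 bases. The places of these genes in the order therefore depend on the gene model.

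The remaining keratins stayed near the floor. The table held 44 other keratin genes, of which 36 had under 20 reads over all 11 livers and 1 had none. Of the 44, 6 could be tested, and 0 were called in any of the 3 comparisons by limma or limma-voom, with 1, 0 and 1 at an unadjusted p under 0.05 at 3 days, at 7 days and between them. The highest was Krt10, a type I keratin of epidermis, with a mean of 1.80 eRPKM over the livers and 1.62, 1.45 and 2.50 in the 3 groups, singled out after its values were seen. Its exons overlap the annotated gene Gm11940, and the reads were not assigned by strand. Krt10 had a log2 fold change of 0.53 (SE 0.26, limma adjusted p = 0.129) at 7 days. Krt14, the basal type I keratin of stratified epithelium, had 1.46, 0.698 and 0.465 eRPKM in the groups (log2 fold change -0.85, adjusted p = 0.140).

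Promoter sequences were read for the members that have an entry among the RefSeq promoter windows (GRCm38.p6, the 250 bases before the start of the gene, on the strand of the gene). An entry was found for 5 of the 8, Krt7, Krt8, Krt18, Krt20 and Krt23. The abundant pair Krt8 and Krt18, the called Krt7 and the nearly silent Krt20 are shown, because TEAD, the partner of YAP, recognises the letters GGAATG, and Krt20 is the one of the 5 windows that holds them. Capitals mark this motif on either strand (GGAATG or CATTCC).
Krt8, chr15:102004343-102004592, minus strand: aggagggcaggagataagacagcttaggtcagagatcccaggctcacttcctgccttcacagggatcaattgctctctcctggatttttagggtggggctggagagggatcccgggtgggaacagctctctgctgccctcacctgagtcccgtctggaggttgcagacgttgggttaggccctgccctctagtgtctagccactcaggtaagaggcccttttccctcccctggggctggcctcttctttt
Krt18, chr15:102027966-102028215, plus strand: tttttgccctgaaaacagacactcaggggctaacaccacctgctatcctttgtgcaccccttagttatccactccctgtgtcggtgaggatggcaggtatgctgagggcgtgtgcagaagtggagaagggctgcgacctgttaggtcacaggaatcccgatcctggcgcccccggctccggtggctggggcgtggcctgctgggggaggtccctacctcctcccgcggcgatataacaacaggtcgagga
Krt7, chr15:101412153-101412402, plus strand: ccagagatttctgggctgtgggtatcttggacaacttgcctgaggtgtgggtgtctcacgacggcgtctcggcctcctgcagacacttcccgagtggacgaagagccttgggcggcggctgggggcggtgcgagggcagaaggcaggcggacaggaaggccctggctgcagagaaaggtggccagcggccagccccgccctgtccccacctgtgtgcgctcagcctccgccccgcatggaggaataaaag
Krt20, chr11:99438154-99438403, minus strand: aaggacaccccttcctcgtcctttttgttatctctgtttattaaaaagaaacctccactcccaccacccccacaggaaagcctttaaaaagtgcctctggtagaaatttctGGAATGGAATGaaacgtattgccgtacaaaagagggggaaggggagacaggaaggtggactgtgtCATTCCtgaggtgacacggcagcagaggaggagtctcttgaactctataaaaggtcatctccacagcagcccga

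Krt20 held the motif 3 times, at 139, 134 and 74 bases before the start, the first 2 copies sharing 1 base. The windows of Krt7, Krt8, Krt18 and Krt23 held none. The motif occurred in 12.6% of the 32536 different windows of all genes. The AP-1 motif TGAGTCA or its complement TGACTCA occurred in 4.45% of them and in none of the 5 windows. Such matches are a description of letters near a start. The window with the TEAD letters belonged to the member with the fewest reads, 8 over all 11 livers.

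Several genes that anchor keratin filaments rose at 7 days. Of 13 tested desmosome and plakin genes 7 were called higher at 7 days and none lower, where 18% of all tested rows were called higher and 5.77% lower, with a median log2 fold change of 1.02 beside 0.26 over all tested genes, and none was called at 3 days. Of all 94 tested genes in the 11 lists, 0 were called at 3 days by limma or limma-voom, and 13 had an unadjusted p under 0.05. Ppl, which encodes periplakin, a linker between desmosomes and filaments, stood at 6.03, 10.7, 8.66 and 5.82 eRPKM in controls and 40.3, 39.6 and 49.4 at 7 days. It rose by 2.43 (SE 0.45, limma adjusted p = 0.00110). Eppk1, for epiplakin, a keratin-binding plakin, stood at 12 to 17.2 eRPKM in controls and 52.8 to 59.6 at 7 days and rose by 1.96 (SE 0.32, adjusted p = 0.000436). Dst, for the plakin dystonin, stood at 6.86 to 11.4 and 26.0 to 33.0 and rose by 1.63 (SE 0.29, adjusted p = 0.000962). In all 3 genes the 7-day livers lay far above every control. The other 4 were Jup, for plakoglobin (1.55), Evpl, for envoplakin (1.17), and the plakophilins Pkp4 (1.08) and Pkp2 (1.02). Evpl had at most 0.378 eRPKM in controls and 0.288 in 3-day livers and passed the filter only through its 7-day livers, so its call lends no support, and 6 of 12 were called without it. The count of 7 fell to 4 in libraries with more Xist than Ddx3y, to 2 without the 2 shallowest controls (controls 3 and 4), and to 0 with log2 depth as a covariate, a term that runs largely along with the groups. Other genes of the list, singled out after their values were seen, were not called at 7 days. Dsp, for desmoplakin, had 0.64 (limma adjusted p = 0.119), Dsg2 0.23 (adjusted p = 0.412) and Dsc2 -0.13 (adjusted p = 0.638). Perp stood at 84.0 to 97.5 eRPKM in controls and 65.1 to 69.3 in 7-day livers, so each 7-day liver lay below every control. At 3 days Ppl was 28.9 eRPKM in liver 3 and 4.31 to 10.9 in the other 3.

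**Figure D4:**
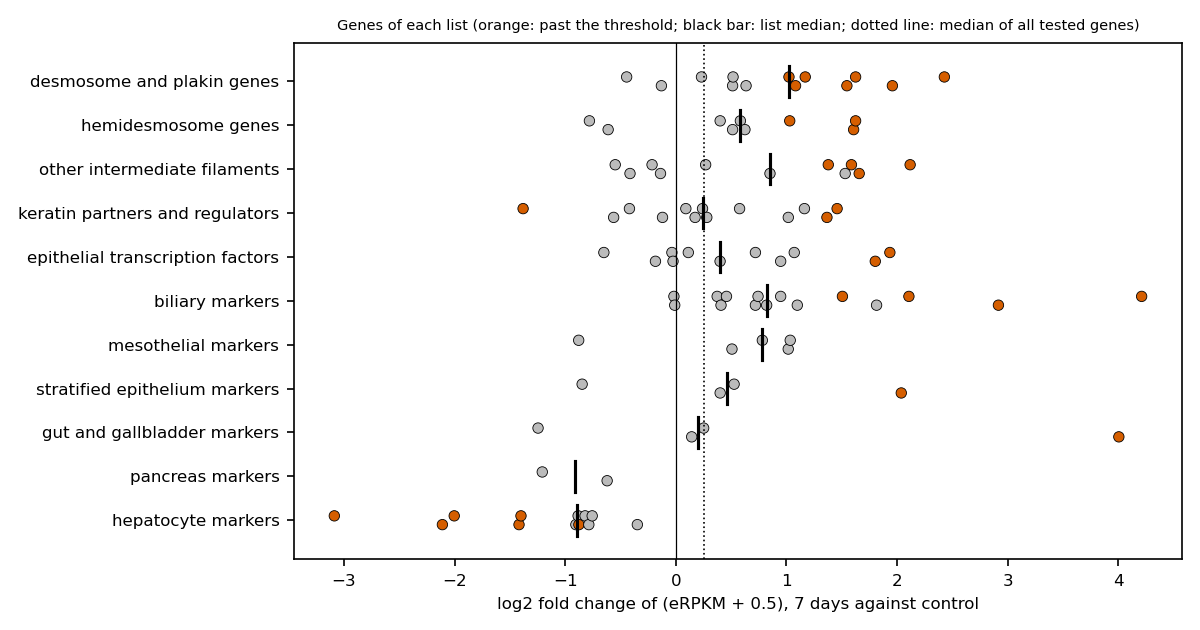
Log2 fold change of eRPKM + 0.5 at 7 days against control (horizontal axis) for each tested gene of 11 lists (rows). Orange points passed the threshold, grey points did not, the black bar is the median of the list and the dotted line is the median of all tested genes, 0.26. The desmosome and plakin list has its median at 1.02 and the hepatocyte list at -0.89.

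Hemidesmosome genes, which tie filaments to the basement membrane, gave 3 called higher of 9 tested at 7 days, none lower, and a median of 0.58. Of all tested rows 18% were called higher and 5.77% lower. The 3 called genes were Dst, already counted above, the laminin receptor chain Itga6 (1.61, SE 0.26, limma adjusted p = 0.000386) and its partner Itgb4 (1.03, adjusted p = 0.00707). Itga6 stood at 1.30 to 2.31 eRPKM in controls and 5.64 to 6.59 at 7 days. The 7-day livers again lay above all controls. The count of 3 became 1 with log2 depth as a covariate and 1 without the 2 shallowest controls. With quantile normalization 1 gene of the list was called lower. The laminin genes Lama3 and Lamb3, singled out after their values were seen, had lower means at 7 days. Lama3 averaged 1.28 eRPKM in controls and 0.419 at 7 days, and Lamb3 1.17 and 0.614, with overlapping groups.

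Among other intermediate filament genes 4 of 11 tested were called higher at 7 days and none lower, beside 18% and 5.77% of all tested rows, with a median of 0.85. Lmna, for lamin A and C of the nuclear lamina, stood at 21.2 to 25.7 eRPKM in controls, 23.9 to 44.9 in 3-day livers and 67.1 to 80.2 in 7-day livers, and rose by 1.59 (SE 0.20, limma adjusted p = 6.2e-05). Lmnb2, for lamin B2, rose by 1.66 (SE 0.25, adjusted p = 0.000254) and Nes, for nestin of progenitor cells, by 1.38 (SE 0.28, adjusted p = 0.00202). The call of Nes was lost with quantile normalization (0.71, adjusted p = 0.0601), with log2 depth as a covariate (1.13, adjusted p = 0.0250), in libraries with more Xist than Ddx3y (1.26, adjusted p = 0.0307), without the 2 shallowest controls (1.14, adjusted p = 0.0237) and without 7-day liver 3 (1.19, adjusted p = 0.0169). Prph, for the neuronal filament peripherin, was named because it made up the count of 4. It held at most 0.189 eRPKM in controls, 0.195 in 3-day livers and 1.27 to 2.23 in 7-day livers (log2 difference 2.12). It passed the filter only through its 7-day livers, so its call lends no support, and 3 of 10 were called without it. Lamins are filaments of the nucleus found in most cells, so this list is not one of epithelial filaments.

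Transcription factors known for epithelial programmes gave 2 called higher of 11 tested at 7 days and none lower, a share near the 18% of all tested rows called higher, with a median of 0.40. Elf3, an epithelial ETS factor, stood at 0.441 to 0.871 eRPKM in controls and 2.37 to 6.76 at 7 days and rose by 1.94 (SE 0.36, limma adjusted p = 0.00125). Klf4, a factor of barrier epithelia, stood at 1.06 to 2.26 and 4.45 to 8.09 and rose by 1.80 (SE 0.31, adjusted p = 0.000604). With quantile normalization neither was called, at 1.41 (adjusted p = 0.0118) and 1.16 (adjusted p = 0.0107), and without the 2 shallowest controls 1 gene of the list was called.

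Keratin partners and regulators gave 2 called higher and 1 lower of 13 tested at 7 days, with a median of 0.24. These shares were near those of all tested rows, 18% higher and 5.77% lower. Hspb1, a small heat shock protein that binds keratins, rose by 1.46 (SE 0.33, limma adjusted p = 0.00381), and Tgm2, a transglutaminase that cross-links proteins, rose by 1.37 (SE 0.22, adjusted p = 0.000378). Casp6, a caspase that cleaves Krt18, fell by 1.38 on the log2 scale (SE 0.28, adjusted p = 0.00194). Hspb1 lay at 11.3 to 28.5 eRPKM in the 3-day livers, all above the controls at 4.51 to 9.75. Without the 2 shallowest controls 1 gene of this list was called higher. The call of Hspb1 at 7 days was lost without control 1, without control 4 or without any single 7-day liver, and that of Casp6 without 7-day liver 1 or 3.

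Markers of other cells that express these keratins were measured in the same libraries. Of all tested rows 18% were called higher and 5.77% lower at 7 days. Mesothelial cells of the liver surface carry Krt7, Krt8, Krt18 and Krt19, and none of 5 tested mesothelial markers was called at 7 days by limma or limma-voom (4 with an unadjusted p under 0.05, median log2 fold change 0.78), with summed levels of 2.50 to 4.43 eRPKM in controls, 3.70 to 9.59 in 3-day livers and 2.17 to 8.64 in 7-day livers. Of stratified epithelium markers 1 of 4 tested was called, Sprr1a, a cornified envelope protein, named because it made up that count (log2 difference 2.04). Sprr1a held at most 0.223 eRPKM in controls and 0.461 in 3-day livers and 0.688, 1.03 and 5.78 in 7-day livers. It passed the filter only through the 7-day livers, so its call lends no support, and 0 of 3 were called by limma without it. Its call was also lost with no filter, with a mean of at least 1 eRPKM, with quantile normalization, with the compared groups only, with the replicate block, with log2 depth as a covariate, with limma-voom, in libraries with more Xist than Ddx3y, without the 2 shallowest controls, and without control 1, control 3, control 4 or 7-day liver 3. The 14 markers of stratified epithelium summed to 2.33 to 7.22 eRPKM in controls, 2.88 to 4.09 in 3-day livers and 4.38 to 10.2 in 7-day livers. Of these, Krt13, Krt1, Krt6a and Sprr3 were at 0 in every 3-day liver and Ivl, for involucrin, in every 7-day liver. The whole stratified list thus summed to less than the Krt4 level of each 7-day liver, and its part in the Krt4 result was not tested.

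Of gut and gallbladder markers 1 of 4 tested was called higher at 7 days, the mucin Muc13 (log2 difference 4.01), and none lower. Of all tested rows 18% were called higher and 5.77% lower. Muc13 stood at 0 to 0.246 eRPKM in controls, 0 to 0.240 in 3-day livers and 6.69 to 11.6 in 7-day livers. It passed the filter only through its 7-day livers, so its call lends no support and its levels are a description. Fabp2, the fatty acid binding protein of the intestine, singled out after its values were seen, stood at 81.4 to 131 eRPKM in controls and 34.3 to 46.5 in 7-day livers, with a log2 fold change of -1.24 (SE 0.33, limma adjusted p = 0.0105) that just missed the threshold. With size factors and with quantile normalization 1 gene of this list was called lower. The gut factor Cdx1 was at 0 in all 11 livers, and the sum of the list was 91.2 to 149 eRPKM in controls, 74.0 to 192 in 3-day livers and 55.8 to 78.0 in 7-day livers. Of 2 tested pancreas markers none was called at 7 days against control by limma or limma-voom (1 with an unadjusted p under 0.05), with a sum of 12.2 to 14.3, 8.59 to 25.5 and 3.32 to 9.83 eRPKM. Hepatocyte markers gave 6 called lower of 12 tested at 7 days and none higher, beside 5.77% and 18% of all tested rows. The median of the list was -0.89, and over the alternatives 4 to 10 were called lower. Reads of some markers hardly followed depth. Alb had 2417 to 3102 per control and 2840 to 2934 per 7-day library, and Apoa1 1078 to 1423 and 1471 to 1496. For Hnf4a they were 1072 to 3512 and 3237 to 3264. The part of depth in the lower levels was not tested. The largest falls were those of Cyp7a1, the rate-limiting enzyme of bile acid synthesis (fell by 3.09 on the log2 scale), G6pc, the last enzyme of glucose release (fell by 2.11), and Cyp2e1, a pericentral cytochrome (fell by 2.0). The call of G6pc was lost with log2 depth as a covariate (limma adjusted p = 0.0109) and without the 2 shallowest controls (adjusted p = 0.0104). Cyp7a1 and Cyp2e1 kept theirs in all 26 alternatives. Krt8 and Krt18, the hepatocyte keratins, were not among the genes called lower.

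Exon overlaps with a second annotated gene were found for Dsp, Dsg2, Dst, Elf3, Bicc1, Prom1, Pkhd1, Tgm2, Muc13, Itgb4, Ctgf and Yap1. Reads were not assigned by strand, so part of their signal could come from the overlapping gene. Eppk1 had no match in the annotation and could not be checked.

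For each tested member the gene with the most similar profile was found among 12563 tested genes with a mean of at least 1 eRPKM, by the Pearson correlation of log2 values over the 11 livers. For Krt4 this was 2310007B03Rik (r = 0.985), with 0 to 0.985 eRPKM in controls, 0.462 to 3.96 in 3-day livers and 23.3 to 24.1 in 7-day livers. For Krt7 it was Prkx, a protein kinase gene (r = 0.983), and for Krt80 it was Cx3cr1, the fractalkine receptor of monocytes and macrophages (r = 0.960). The others were Il17rb for Krt23 (r = 0.949), Isyna1 for Krt19 (r = 0.940), Serinc2 for Krt8 (r = 0.908) and Gpt2 for Krt18 (r = 0.887). These are the best of many candidates, over livers that share library depth and group, and are given as descriptions only.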

How the data were processed

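The deposited table held eRPKM (RPKM-type) values for each of 11 livers, which the authors made from paired reads by masking low-quality bases, an unstranded TopHat 2.0.8 alignment to mm9 and, per the submitters' processing notes, counting with featureCounts 1.4.5-p1. The annotation used for counting is not given in the sources used here. The table also held 3 columns of the authors' own comparison of 7 days with control, which were not used.

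Groups came from the labels. All 177553 values above 0 gave whole reads (100%, within 0.1 read) when each gene's step was worked out, and these reads gave depth and floors. Intervals and floors cover counting error only, and 3 reads were taken as the limit that a count of 0 allows. Rows with at least 0.5 eRPKM in at least 3 livers were tested with limma 3.58.1 (R 4.3.3, eBayes with trend) on log2(eRPKM + 0.5), with all 11 livers in 1 fit and Benjamini-Hochberg adjustment over 14244 rows. The pseudocount understates fold changes of low genes. The call needed an adjusted p under 0.01 together with a log2 fold change beyond 0.5 in either direction. Every adjusted p is from limma. The limma step was tested on simulated data. Exact permutation tests were two-sided and could not go below 0.0286. GENCODE M1 (mm9) gave the positions and overlaps, and RefSeq (GRCm38.p6) the promoter windows.

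The members, gene lists and tests were chosen with earlier results of these data known. Named genes were all 8 members, and in each list the 3 called genes with the widest change at 7 days and a mean of at least 1 eRPKM, with defining markers at 0. Other list genes named complete a small count or are markers, called genes or uncalled genes singled out after their values were seen. Alternatives were other pseudocounts, filters, scalings, covariates, thresholds, limma-voom on the recovered reads, and each liver left out. Those using the suffix MF or leaving out the 2 shallowest controls were added after the values were seen. Tables and figures were made in Python 3.11.15 (pandas 2.3.3, numpy 2.4.6, matplotlib 3.10.9).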

Additional observations from a re-analysis of the deposited data

Results flagged for a closer look

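Krt8 in the 3-day livers had 1 liver apart from the rest. Liver 3 stood at 150.1 eRPKM and the others at 173.2 to 176.6, and the gap took a share of 0.870 of the whole range, above Dixon's 95% limit for 4 samples. This was 1 of 19 sets of values examined, and chance passes such a limit in about 1 of 20.

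Krt4 differed between the 7-day and 3-day responses by a log2 value of 3.44 (95% interval 2.12 to 4.76, limma adjusted p = 0.00105), with all 3 7-day livers above all 4 3-day livers. Krt80 differed between these responses by 1.38 (SE 0.28, limma adjusted p = 0.00287), and its 3-day livers lay below all controls while its 7-day livers lay above them. Krt80 entered the test only through its 7-day values, so this p lends no support.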

How the results depend on the processing

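Krt4 was called at 7 days and between 3 and 7 days in all 26 alternatives, with log2 fold changes of 5.23 to 7.86 and 2.58 to 3.86. Depth limited Krt7, Krt19, Krt20, Krt23 and Krt80, which rested on few reads in controls. At 3 days 1 member (Krt4) was called with the suffix MF as a covariate and 1 without the 3 livers of that suffix, neither of which adds support, and leaving out 1 liver gave 0 to 1. At 7 days 1 was called with a pseudocount of 0.1, 1 with a mean of at least 1 eRPKM, 4 with quantile normalization, 4 in libraries with more Xist than Ddx3y and 5 at an adjusted p under 0.05, and leaving out 1 liver gave 1 to 3. Between 3 and 7 days 1 was called with a mean of at least 1 eRPKM, 1 in libraries with more Xist than Ddx3y and 4 at an adjusted p under 0.05, and leaving out 1 liver gave 1 to 3. Krt7 and Krt80 did not reach a mean of 1 eRPKM, so under that filter they were not tested and could not be called. Krt7 lost its call at 7 days in 5 of 25 alternatives and Krt80 its call between 3 and 7 days in 6 of 25. Values that turned direction were Krt7 at 3 days (-0.0187 without the 2 shallowest controls), Krt19 at 3 days (-0.30 without control 1 and -0.0096 without 3-day liver 4, and -0.30 to 0.38 over all livers left out in turn), Krt23 at 7 days (-0.32 with log2 depth as a covariate), and Krt8 (-0.0133) and Krt18 (-0.0607) between 3 and 7 days with size factors. The cause was not tested for any of these. Over all genes at 7 days, 2561 were called higher and 822 lower under the deposited scaling, 1951 and 1254 with size factors, and 1857 and 1821 with quantile normalization. Between 3 and 7 days these were 1997 and 756, 1516 and 1181, and 1436 and 1430. Over the alternatives the genes called higher ran from 0 to 53 at 3 days, 1099 to 3969 at 7 days and 672 to 3621 between them, and those called lower from 0 to 2, 469 to 1821 and 211 to 1464. With the replicate block 0, 3 and 3 members were called at 3 days, at 7 days and between them (3 at 7 days being Krt4, Krt7 and Krt19). Replicate numbers did not pair the livers, since 2 of 10 same-numbered pairs had deviations correlated over 0.1 (range -0.222 to 0.269).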
